A study of Mus musculus with 11 samples.

Results

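DNA methylation was measured in whole pancreas of newborn C57BL/6N mice, wild type in genotype, and the regions described here are the 5000-base tiles whose methylation differed most from one control mouse to the next. A tile entered the set when the authors' SD over the control mice was at least 25 percentage points, all 6 control mice had reads there, and the lowest coverage among them was at least 20. On chromosomes 1 to 19 these criteria chose 4356 tiles, 3.36% of the 129727 tiles that met the same coverage criteria, out of 259716 tiles in the whole table. The tiles were thus chosen by the measured SD of the control mice, so that their control values are given as a description and support nothing by themselves. The other 125371 tiles under the coverage criteria served for comparison.

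The study compared pups exposed to amphetamine before birth with control pups. Pregnant dams received amphetamine at 10 mg/kg body weight on embryonic days 14.5, 15.5 and 16.5, or saline, and pancreas was taken on postnatal day 0. Of the 11 mice, 6 were in the saline group (3 female and 3 male), referred to as control mice, and 5 in the amphetamine group (3 female and 2 male). The labels do not say which pups shared a litter.

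Reduced representation bisulfite sequencing (RRBS) cuts DNA with restriction enzymes, here MspI and TaqI, and reads the methylation of the CpG sites near the cuts, where C is followed by G. Genetically identical inbred mice can still differ in methylation. The best known cases are metastable epialleles, often at endogenous retroviruses of the IAP class, where the state is set at random early in development and is then shared by the tissues of a mouse. Imprinted genes are another special case, because their control regions carry methylation on the copy from a single parent and therefore sit at intermediate methylation.

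The deposited tables held group summaries and no values per mouse: the mean, SD, lowest and highest methylation of each group, the coverage, and the number of mice with reads. From the mean, SD, lowest and highest value, the mean and SD of the middle 4 control mice were obtained exactly, as was the SD of the other 5 control mice after the mouse farthest from the mean was taken out. Exact tests over mice need values per mouse, so group differences are described here without a test, and neither the litter nor the library that gave an extreme value can be read from these summaries. Coverage was taken to be the sum of calls at all CpG sites in a tile. Its mean had a median of 71.5 in control and 87 in amphetamine mice over the variable tiles, against 124.7 and 152.8 over the other tiles. In whole pancreas, fewer cells of a type and a change of methylation within cells cannot be told apart.

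Genomic fragments from 6 variable tiles are shown in order to give the sequence context of the results below. Each is the fragment of 40 to 300 bases between neighbouring MspI or TaqI cuts that held the most CpG sites and touched no annotated untranslated region. For Plagl1, Nnat and Sipa1 the fragment touched the CpG island that itself varied. The Tmem132d, Lrrc49 and chromosome 2 tiles were among the most deeply covered. Sequences are from the reference assembly GRCm38, which is the build mm10, on the plus strand, with CpG sites in capitals. Which fragments of a tile were read is not known from the summaries.
Plagl1 island, chr10:13091040-13091110: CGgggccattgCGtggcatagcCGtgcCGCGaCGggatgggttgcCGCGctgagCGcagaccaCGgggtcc
Nnat island, chr2:157560311-157560476: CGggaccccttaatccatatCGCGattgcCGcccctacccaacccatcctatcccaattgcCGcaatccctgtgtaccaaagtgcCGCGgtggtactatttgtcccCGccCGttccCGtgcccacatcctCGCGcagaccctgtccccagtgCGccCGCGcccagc
Sipa1 island, chr19:5654008-5654203: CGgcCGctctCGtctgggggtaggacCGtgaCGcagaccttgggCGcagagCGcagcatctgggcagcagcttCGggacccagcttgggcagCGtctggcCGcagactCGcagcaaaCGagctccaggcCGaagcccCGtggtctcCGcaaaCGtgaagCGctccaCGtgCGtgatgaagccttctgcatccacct
Tmem132d, chr5:127797577-127797787: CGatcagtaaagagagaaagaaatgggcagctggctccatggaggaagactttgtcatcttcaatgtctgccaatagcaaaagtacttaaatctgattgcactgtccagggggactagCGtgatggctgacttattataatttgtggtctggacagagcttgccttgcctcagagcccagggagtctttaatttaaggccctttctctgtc
Lrrc49, chr9:60619584-60619826: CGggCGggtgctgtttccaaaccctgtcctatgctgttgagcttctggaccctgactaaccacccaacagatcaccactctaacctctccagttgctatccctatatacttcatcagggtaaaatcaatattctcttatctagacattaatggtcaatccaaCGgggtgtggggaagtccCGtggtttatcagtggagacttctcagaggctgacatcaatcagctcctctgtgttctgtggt
Chromosome 2, no gene, chr2:37735243-37735530: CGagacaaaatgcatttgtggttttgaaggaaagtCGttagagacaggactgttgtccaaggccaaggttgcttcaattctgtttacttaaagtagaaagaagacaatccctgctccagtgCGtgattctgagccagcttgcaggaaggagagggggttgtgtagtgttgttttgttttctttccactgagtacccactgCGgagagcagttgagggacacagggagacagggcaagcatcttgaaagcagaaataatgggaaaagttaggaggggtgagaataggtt

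The fragments differed widely in composition. The Plagl1 fragment packed 10 CpG sites into 71 bases (GC content 73.2%), the Nnat fragment 15 into 166 bases (63.9%) and the Sipa1 fragment 19 into 196 bases (66.3%). By contrast, the fragments outside islands held 2 sites in 211 bases for Tmem132d, 4 in 243 bases for Lrrc49 and 4 in 288 bases for the chromosome 2 tile. In all 6, the first and the last 50 bases each matched the genome at 1 place only.

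Variable tiles were mostly methylated at intermediate levels. Their control mean had a median of 64.4%, with quartiles of 52.1% and 73.6% and a range of 13.4% to 89.7%, whereas the other tiles had a median of 82.8%. An SD of this size cannot arise near 0% or 100%, so the level follows in part from the choice. The lowest control mouse had a median of 20.7% and the highest reached 100%. In 354 tiles (8.13%) a control mouse at 0% and another at 100% were found side by side. The control SD ranged from 25.002 to 50.7 points, with a median of 28.3. Just inside the limit lay tiles with SDs of 25.002, 25.003 and 25.005 points, at chr12:5395001-5400000, chr7:97705001-97710000 and chr4:87470001-87475000. Just outside it were SDs of 24.997, 24.997 and 24.996 points, at chr4:151505001-151510000, chr14:69825001-69830000 and chr17:25715001-25720000.

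The share of tiles that were variable fell steeply with coverage. Among tiles whose lowest control coverage was 20 to 29, 1969 of 23536 were variable, or 8.37% (95% Wilson interval 8.02 to 8.73). From 30 to 49 the share was 5.29% (1548 of 29259), from 50 to 99 it was 2.05% (702 of 34199), and from 100 up to but not including 200 it was 0.494% (115 of 23288). From 200 to below 500 only 19 of 15821 tiles were variable, 0.120% (0.0769 to 0.188), and at 500 or more 3 of 3624, 0.0828% (0.0282 to 0.243). These intervals cover counting of tiles only. The median lowest coverage was 31 in variable tiles and 64 in the others, which corresponds to 2.33 and 3.58 calls per CpG site that reads can reach (a site within 50 bases of a cut).

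**Figure D1:**
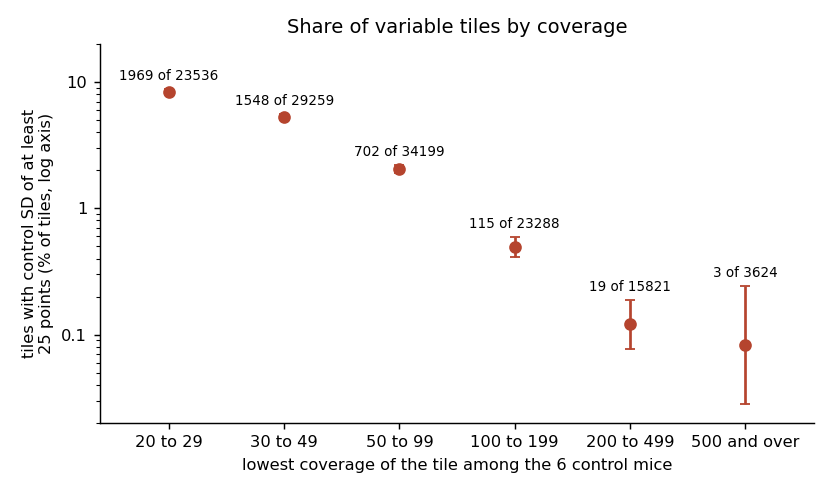
Share of tiles with a control SD of at least 25 points (vertical axis, percent, log scale) in bands of the lowest coverage among the 6 control mice (horizontal axis). Points are shares with 95% Wilson intervals, and the share falls from 8.37% at a coverage of 20 to 29 to 0.0828% at 500 and over.

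Were all calls in a tile independent, counting alone would give an SD with a median of 5.42 points at the mean control coverage of the variable tiles and 8.12 points at their lowest coverage. Calls on the same read and copies of the same molecule are not independent, and a tile value may average CpG sites of unlike methylation. These SDs are thus a reference and not limits. The part of coverage in the spread was not tested beyond the bands given here.

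The median spread of the variable tiles was smaller without the control mouse farthest from the mean, but still above that of the other tiles. Once the mouse farthest from the group mean was taken out, the SD of the other 5 fell under 25 points in 81.2% of the tiles, and it stayed at 25 points or more in 820 (18.8%). Many tiles lay close above the limit that chose them, so that a fall under 25 points follows in part from the choice. The median SD of these other 5 mice was 20.7 points, compared with 5.08 points over the tiles outside the set. Both come from the control values that chose the tiles, so that this difference also follows largely from the choice. In 435 tiles (9.99%) the other 5 mice lay close together, with an SD under 10 points. Among these, the mouse apart was low in 387 and high in 48. These 435 tiles had a median control level of 80.7%, which leaves less room above than below. Over all variable tiles the farthest mouse was low in 3163 (72.6%), compared with 64.8% of the other tiles. At a lowest control coverage of 20 to 49 the shares were close, at 73.8% and 72.0%. At 50 or more they were 67.7% and 60.2%. The sex of the lowest control mouse was read by matching its value to the lowest value of each sex over all mice: it was female in 1858 tiles (42.7%), male in 1913 (43.9%), fitted both sexes in 222 and was not shown in 363. The lowest values were thus found in control mice of both sexes.

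In the amphetamine mice, which the choice had not used, the same tiles were also spread more widely than others. The median SD over the amphetamine mice was 17.7 points in the variable tiles (quartiles 12.1 and 24.3) and 7.16 points in the other tiles (4.03 and 11.8). An amphetamine SD of at least 25 points was found in 999 of 4355 variable tiles (22.9%), compared with 3.11% of all tiles under the coverage criteria and 2.42% of the other tiles. The remaining 77.1% of the variable tiles were thus below the limit in the amphetamine mice. Fewer than 5 amphetamine mice had reads in 4.20% of the variable tiles and in 0.489% of the others. Where amphetamine mice met the same coverage criteria, the shares were 17.8% (606 of 3399) and 1.80%.

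**Figure D2:**
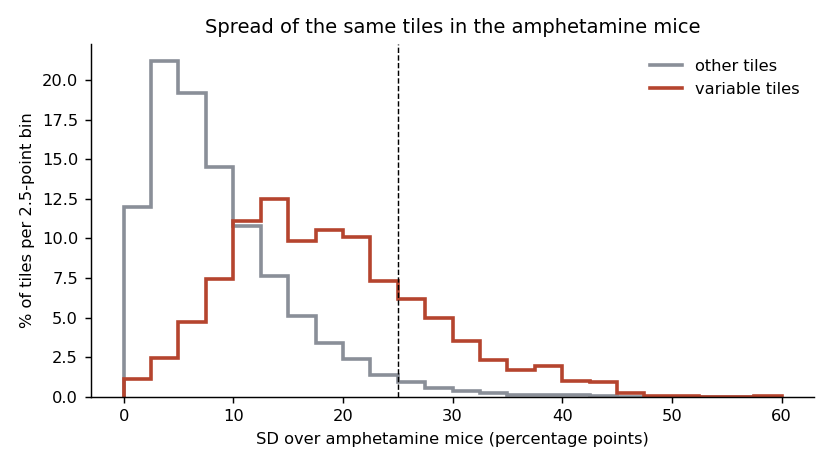
Distribution of the SD over the amphetamine mice (horizontal axis, percentage points) for the 4355 variable tiles with a value and for the other tiles, as percent of tiles per 2.5-point bin. The dashed line marks 25 points; 22.9% of the variable and 2.42% of the other tiles lie to its right.

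The shares also differed within the same bands of level and coverage. Between 20% and 80% methylation in the amphetamine mice, 30.1% of variable and 6.58% of other tiles reached 25 points. When the lowest control coverage was also held at 20 to 49, the shares were 33.3% (825 of 2477) and 12.2% (2005 of 16473). Within these bands the sets still differed, with median amphetamine levels of 61.5% and 71.2% and median lowest control coverages of 28 and 32. The recurrence in amphetamine mice was less common where a single control mouse stood apart. Of the 435 tiles whose other 5 control mice had an SD under 10 points, 54 (12.4%) reached 25 points in the amphetamine mice. The share was 17.9% (279 of 1563) for an SD of the other 5 between 10 and 20 points, 25.8% (396 of 1538) between 20 and 25, and 32.9% (270 of 820) at 25 or more. The control level of these classes differed too, with medians of 80.7%, 67.7%, 62.2% and 58.7%.

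In both sets the recurrence was less common at deeper coverage. The share of variable tiles with an amphetamine SD of at least 25 points was 27.2% at a lowest control coverage of 20 to 29, 21.6% at 30 to 49, 15.5% at 50 to 99 and 14.8% from 100 to below 200. The other tiles had 5.47%, 3.91%, 1.88% and 0.488% in the same bands. All these shares are descriptions without a test, because the tiles of a mouse share its library.

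The tiles touched genes about as often as others did, but CpG islands less often. Genes, as annotated in the deposited gene table, were touched by 2375 variable tiles (54.5%) and by 52.8% of the other tiles. CpG islands, stretches of dense CpG that often hold promoters and are usually unmethylated, were touched by 87 variable tiles (1.997%) and by 11.5% of the others. Promoters, set by the authors around gene starts, were touched by 7.69% and 15.5%. At low coverage these gaps in islands and promoters were small: between 20 and 49 the shares were 1.42% and 1.76% for islands and 6.57% and 6.45% for promoters. At 50 or more the gaps remained, with 4.41% and 17.8% for islands and 12.4% and 21.3% for promoters. From 100 to below 200 islands were touched by 7.83% and 15.5%. Genes were touched by 54.2% of variable and 46.4% of other tiles between 20 and 49. At 50 or more the order turned, with 55.9% and 56.9%.

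**Figure D3:**
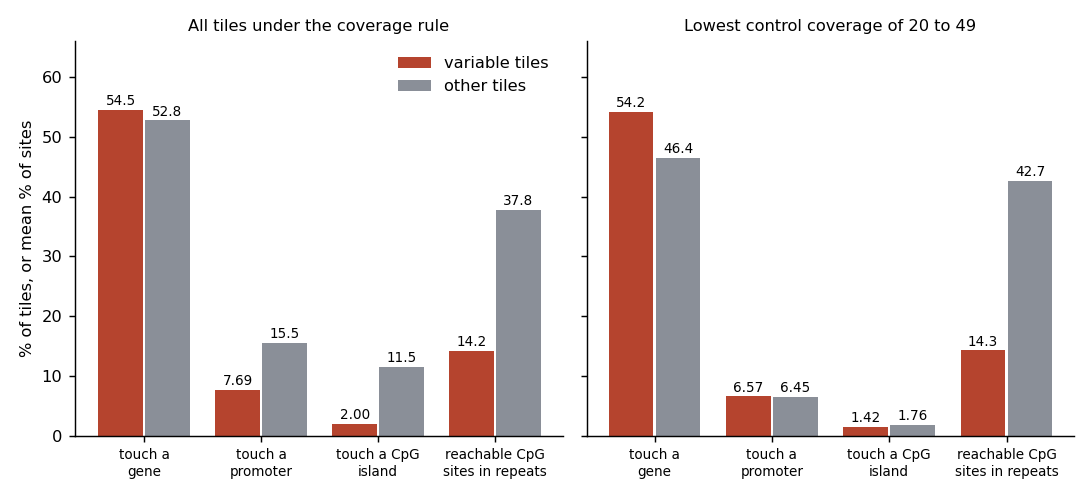
Percent of variable and other tiles that touch a gene, a promoter or a CpG island, and the mean percent of their reachable CpG sites that lie in repeats, for all tiles under the coverage criteria (left) and for a lowest control coverage of 20 to 49 (right). Island and promoter shares meet in the right panel (1.42% and 1.76%, 6.57% and 6.45%), and the repeat share does not (14.3% and 42.7%).

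Repeats differed between the sets except in the deepest tiles. Of the CpG sites that reads can reach, a mean of 14.2% per tile lay in repeat-masked sequence in the variable tiles and 37.8% in the others. At a lowest coverage of 20 to 49 the values were 14.3% and 42.7%, and with amphetamine methylation between 20% and 80% as well they were 12.7% and 30.6%. At 200 or more, with 22 variable tiles, the means were 25.3% and 33.5% and the medians 14.2% and 11.8%, so that the median turned. Over the whole tile, 24.5% of bases were masked in variable and 37.9% in other tiles. Median GC content was close, at 44.98% and 44.24%, as was the number of CpG sites, at 53 and 56. Reachable CpG sites numbered 14 and 19 in the median, and 14 in both sets at a coverage of 20 to 49.

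Variable tiles lay singly and on every autosome. They formed 4297 runs of adjacent tiles, of which 58 held more than 1 tile (117 tiles, 2.69%) and the longest held 3. Of the tiles next to a variable tile that met the coverage criteria, 3.92% (117 of 2988) were variable, near the 3.36% over all tiles. The share per chromosome ran from 2.80% on chromosome 14 to 4.03% on chromosome 8. The tiles touched 2049 genes of the 22279 with a tile under the criteria, and 107 genes were touched by 3 or more. By count, the predicted gene Gm20388 had 18 variable tiles among 545. The interval annotated as Fgfr2, a receptor of fibroblast growth factors, had 15 among 195. Its extent was not checked against another annotation, so these tiles need not all lie in the receptor gene. Npas3, a transcription factor of the nervous system, had 9 among 35.

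CpG islands touched by the variable tiles were mostly not variable themselves. Of 87 islands touched by a variable tile, 41 met the coverage criteria, with a median control methylation of 2.74% and a median control SD of 2.52 points. The control SD was under 10 points in 26 of these and at least 25 points in 15. Fam163a, at chr1:156205001-156210000 over its untranslated region, had the highest control SD of any variable tile with an island, 42.9 points. Its lowest control mouse had 15.8%, its middle 4 averaged 54.8% ± 44.2 (SD) and its highest had 97.6%. Nevertheless, the Fam163a island and promoter had a control mean of 1.91% ± 2.04 and 1.85% ± 2.04 (authors' mean and SD). Both extend beyond the tile, and which CpG sites were read in each mouse is not known. The source of the spread was therefore not tested. In the amphetamine group the lowest Fam163a value was 15.4%, the middle 3 mice averaged 16.2% ± 0.443 and the highest had 97.4%. Control and amphetamine mice thus both ran from about the same low to about the same high value, at a lowest coverage of 166 and 235.

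Islands with low methylation were also touched by 4 other tiles of high control SD. All 4 islands extend beyond their tile, so that the island values also describe sequence outside it. The island at the Gas7 promoter, chr11:67454958-67455972, has only its first bases in the tile. In the Atp6v1g1 tile (chr4:63540001-63545000), a subunit of the vacuolar proton pump, control mice ran from 16.3% to 95% and amphetamine mice from 19.05% to 90.9%, while its island had 3.49% ± 2.34 in control mice. The Ctsl tile (chr13:64365001-64370000), named for the lysosomal protease cathepsin L, spanned 9.09% to 100% in control and 35.7% to 100% in amphetamine mice, and its island stood at 0.662% ± 1.13. A tile touching the Lphn3 promoter (chr5:81015001-81020000) spanned 12.1% to 100% in control mice and had an island at 2.61% ± 2.06. In a tile touching the Gas7 promoter (chr11:67450001-67455000), control mice spanned 15.4% to 98.8% and amphetamine mice 10.5% to 33.0%, with the island at 1.96% ± 2.27. The remaining island tile of this group, at chr14:19040001-19045000, had island reads in 4 control mice only.

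Of 31 variable tiles that touched a gene of the 7 gene lists, 17 touched an imprinted gene. Of 155 tiles under the coverage criteria that touch any of 41 imprinted genes, these 17 (10.97%, Wilson interval 6.96 to 16.9) were variable, beside 3.36% of all tiles. They touched 15 of the listed genes. Coverage and level moved with this count: at a lowest coverage of 20 to 49 it was 13 of 56 (23.2%, all tiles 6.66%), at 50 or more 4 of 99 (4.04%, all tiles 1.09%), and at 30% to 70% methylation in the amphetamine mice 12 of 61 (19.7%, all tiles 10.1%). In the amphetamine mice an SD of 25 points or more was reached by 10 of the 155 tiles (6.45%) beside 3.11% of all tiles, and by 5 of the 17 variable ones, while 22.9% of all variable tiles reached it. The control means of the 17 tiles ran from 33.8% to 77.1%.

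Plagl1, a zinc finger transcription factor expressed from the paternal copy, had the best covered of them. In its island tile (chr10:13090001-13095000, lowest coverage 383) the lowest control mouse had 24.2%, the middle 4 averaged 57.3% ± 19 and the highest had 89.2%. The amphetamine mice ran from 43.8% to 76.7%, inside the control range, with the middle 3 at 56.3% ± 4.77. The island itself had a control mean of 57.1% ± 25.3 and carried the spread. By sex, the 6 females averaged 67.03% ± 18.0 and the 5 males 45.9% ± 15.6 (authors' means and SDs), with overlapping ranges of 43.8% to 89.2% and 24.2% to 61.6%.

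Nnat, a proteolipid gene inside Blcap that is expressed in β cells, likewise varied in its island tile (chr2:157560001-157565000). Its control mice ran from 0.549% over a middle mean of 59.1% ± 13.2 to 83.6%, and the amphetamine mice from 33.9% to 70.5%. Only the lowest control mouse, a male, stood far from the rest: the SD of the other 5 was 15.8 points. Island reads were fewer, with a lowest coverage of 10, and gave a control mean of 55.7% ± 31.8.

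At the shared promoter of Peg10, a gene derived from a retrotransposon, and Sgce, the ε-sarcoglycan gene (chr6:4745001-4750000), control mice spanned 16.7% to 92.3% with the middle 4 at 53.5% ± 29.5. The amphetamine mice spanned 16.8% to 87.8%, with the middle 3 at 59.4% ± 9.77. Both groups covered nearly the same range there. Snrpn and Snurf, which encode a splicing protein and its upstream peptide (chr7:60005001-60010000), ran from 12.1% to 100% in control and from 0% to 78.4% in amphetamine mice. In the tile of Mest, a hydrolase gene (chr6:30730001-30735000), the range was 28.98% to 100% in control and 48.0% to 70.7% in amphetamine mice.

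**Figure D4:**
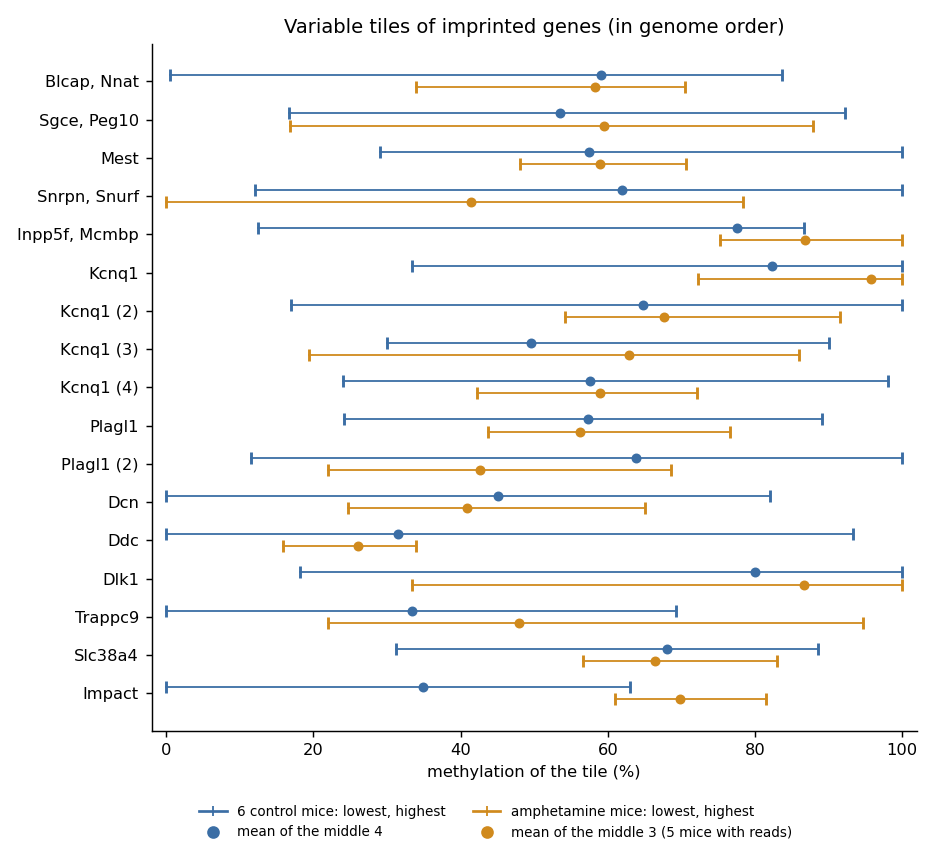
Methylation (horizontal axis, percent) of the 17 variable tiles that touch an imprinted gene, for 6 control mice and the amphetamine mice. Bars run from the lowest to the highest mouse and dots give the mean of the middle 4 or middle 3; the amphetamine bar starts above the control middle mean only for Impact.

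Impact, a regulator of translation, stood out in the amphetamine mice (chr18:12970001-12975000). The control mice ran from 0% over a middle mean of 34.9% ± 21.2 to 63.1%, at a lowest coverage of 20. All 5 amphetamine mice lay between 60.9% and 81.5%, with the middle 3 at 69.8% ± 3.66. The ranges overlapped between 60.9% and 63.1% only. In Trappc9, which holds the imprinted non-coding RNA Peg13 (chr15:72810001-72815000), control mice spanned 0% to 69.3% and amphetamine mice 21.9% to 94.6%. Inpp5f, an inositol phosphatase gene (chr7:128695001-128700000), owed its SD of 28.1 points to a single control male at 12.5%, whereas the middle 4 averaged 77.6% ± 6.85 and the highest had 86.7%. The amphetamine mice of that tile ran from 75.3% to 100%.

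Kcnq1, a potassium channel gene of an imprinted cluster, had 4 variable tiles within introns, with control SDs of 25.3 to 29.8 points. A further Plagl1 tile in its untranslated region (chr10:13115001-13120000) spanned 11.5% to 100% in control mice and 22.0% to 68.6% in amphetamine mice. Dlk1, a Notch-related ligand (chr12:109460001-109465000), spanned 18.2% to 100% and 33.3% to 100%. Tiles in Dcn and Slc38a4 had control SDs of 30.4 and 25.4 points.

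Genes of serotonin and other monoamines had 4 variable tiles among 90 (4.44%), close to the 3.36% of all tiles. The Ddc tile, over coding sequence of the decarboxylase that makes serotonin and dopamine (chr11:11820001-11825000), had a control male at 93.3%, a middle mean of 31.5% ± 4.69 and a lowest female at 0%. Amphetamine mice lay between 15.8% and 33.9%. Slc6a4, the serotonin transporter, varied in a coding tile (chr11:77020001-77025000) from 0% to 100%, with the middle 4 control mice at 80.4% ± 14.2. Only 4 amphetamine mice had reads there, from 80% to 100%, and the lowest control coverage was 21. In the Drd3 intron tile, of a dopamine receptor (chr16:43785001-43790000), control mice spanned 0% to 100% and amphetamine mice 50% to 100%, at a lowest amphetamine coverage of 9.

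No tile that touched a gene of the endocrine pancreas list was variable, at 0 of 91, and the interval of that share reached up to 4.05%. The median lowest coverage of these tiles was 96, and at 50 to 99 the share over all tiles was 2.05%. Promoters were not part of this count. The variable Pcsk2os1 tile (chr2:143540001-143545000) touched the promoter of Pcsk2, a listed gene. That promoter extends beyond the tile and had a control mean of 2.58% ± 1.71. Acinar and duct genes had 2 of 41 (4.88%). Ctrb1, which encodes chymotrypsinogen (chr8:111685001-111690000), spanned 30.0% to 100% in control and 56.99% to 89.1% in amphetamine mice. Markers of other cells of the pancreas had 3 of 81 tiles (3.70%): Cd3d of T cells, Pecam1 of endothelium and Col1a2 of mesenchyme, with control SDs of 26.1, 25.4 and 25.4 points. The shares of the acinar and duct genes and of the markers of other cells were near the 3.36% of all tiles. The interval of the endocrine list also holds that share. A difference in cell types between mice was not tested.

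Enzymes and readers of DNA methylation had 5 of 78 tiles (6.41%, interval 2.77 to 14.1), an interval that holds the 3.36% of all tiles. The Tet1 tile, in an intron of the enzyme that oxidises methylated cytosine (chr10:62890001-62895000, lowest coverage 152), ran from 27.8% over 72.4% ± 17.5 to 94.1% in control mice and from 50.3% to 89.7% in amphetamine mice. Trim28, a co-repressor at retroviruses (chr7:13020001-13025000), ran from 0.769% over 30.4% ± 7.82 to 100%, and its amphetamine mice from 0% to 67.3%. Dnmt3l, Mbd1 and Zfp57 had control SDs of 25.1, 29.3 and 26.5 points. Genes near variably methylated IAP elements of C57BL/6 had 1 of 50 tiles (2%, all tiles 3.36%), in Eps8l1, with a control SD of 26.3 points.

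Gene families named by symbol stayed near or under the share of all tiles. Variable tiles numbered 2 of 75 for olfactory receptors (2.67%), 3 of 164 for vomeronasal receptors (1.83%), 19 of 906 for Zfp zinc finger genes (2.10%), 0 of 63 for clustered protocadherins, 308 of 11008 for predicted and Rik genes (2.80%) and 3 of 133 for microRNA genes (2.26%). Tiles touching any gene had 3.46%.

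Only 22 variable tiles had a lowest control coverage of at least 200. They were selected after their values had been seen, as the tiles of deepest coverage. Deep coverage of a tile does not show that every CpG site was read in every mouse. The promoters touched by the Pip and Plrg1 tiles had reads in only 3 and 4 of the 6 control mice. Of the 22 tiles, 11 touched a gene (50%, other tiles at that coverage 64.9%) and 4 a CpG island (18.2%, other tiles 42.7%). Their control SDs were 25.3 to 31.7 points, and the amphetamine SD was smaller in all 22, as the choice by control SD favours, with a range of 1.74 to 31.3 points and a median of 16.3. In 2 of them, Plrg1 and a tile without a gene on chromosome 16, the amphetamine SD was at least 25 points, and in 5 it was under 10. The farthest control mouse was low in 15 of the 22 (68.2%), beside 51.6% of the other tiles at that coverage. The amphetamine range lay inside the control range in 13. The choice of wide control ranges favours this, as do 6 control mice against 5 amphetamine mice.

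**Figure D5:**
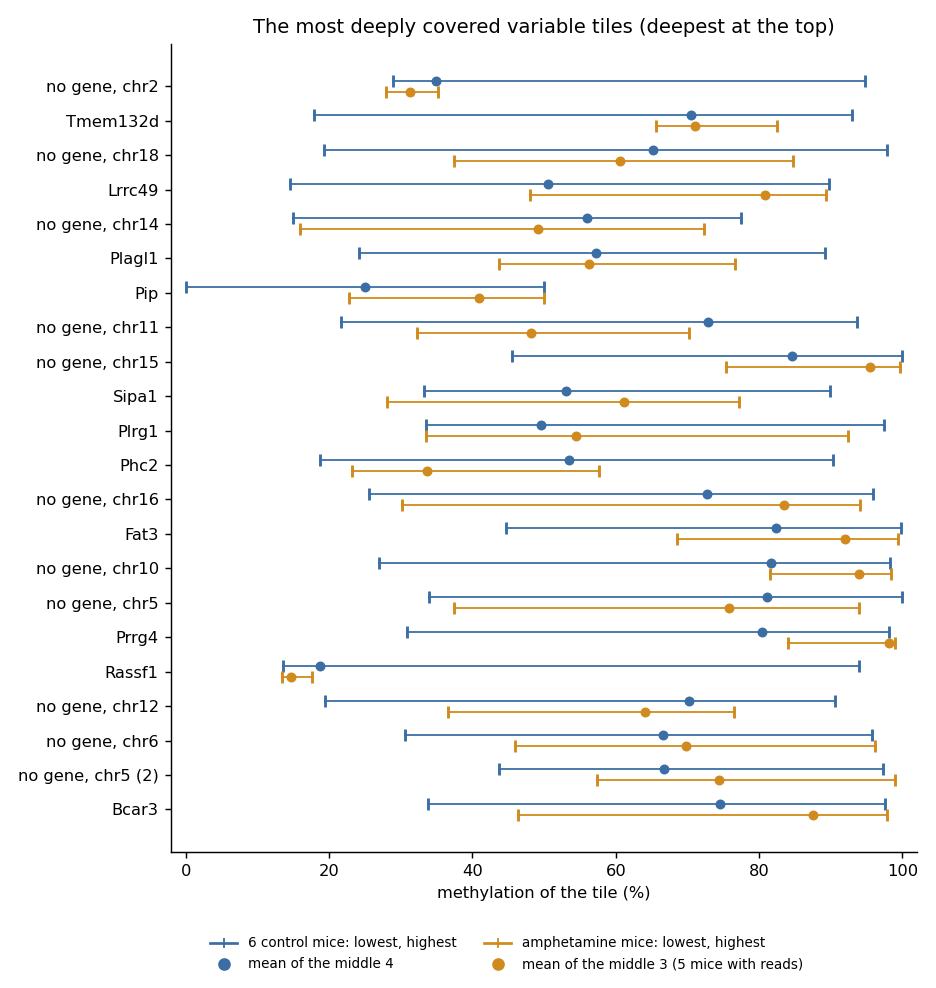
Methylation (horizontal axis, percent) of the 22 variable tiles with a lowest control coverage of at least 200, deepest at the top. Bars run from the lowest to the highest mouse of each group and dots give the mean of the middle 4 control or middle 3 amphetamine mice; in the chromosome 2 and Rassf1 tiles a single control mouse lies far above all others.

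The deepest of them carried no gene (chr2:37735001-37740000, lowest coverage 724), with Strbp as the nearest coding gene at 31142 bases. A control female had 94.8%, while the middle 4 control mice averaged 34.9% ± 4.51 and the lowest had 28.97%. The 5 amphetamine mice lay between 27.9% and 35.2%. A tile over Rassf1, a tumour suppressor, and Tusc2 (chr9:107560001-107565000, lowest coverage 227) showed the same form: a control male had 94.0%, the middle 4 averaged 18.8% ± 4.72, the lowest had 13.6%, and the amphetamine mice lay between 13.4% and 17.6%. In both tiles the SD of the other 5 control mice was 4.71 points.

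Tmem132d, a membrane protein gene (chr5:127795001-127800000, lowest coverage 597), had a control female at 17.9%, a middle mean of 70.5% ± 7.63 and a control male at 92.9%. The amphetamine mice ran from 65.5% to 82.4%. Lrrc49, a leucine-rich repeat gene (chr9:60615001-60620000, lowest coverage 470), spread more evenly: its lowest control mouse had 14.5%, the middle 4 averaged 50.6% ± 21.2 and the highest had 89.7%, with the amphetamine mice between 48.0% and 89.4%. In Sipa1, a GTPase-activating protein gene (chr19:5650001-5655000), the control mice ran from 33.3% to 89.8% and the amphetamine mice from 28.1% to 77.2%, and the island shared the spread (50.8% ± 28.7 in control mice). Plrg1, a splicing factor gene (chr3:83055001-83060000), ran from 33.5% to 97.4% in control and from 33.5% to 92.3% in amphetamine mice, with SDs of 31.7 and 31.3 points. Its island had reads in 4 control and 3 amphetamine mice only and stood at 0% in them.

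The 12 gene tiles of highest control SD were shallow. The highest control SD that touched a gene, 50.7 points, was in an intron of Nell1, a secreted protein gene (chr7:50290001-50295000), at a lowest coverage of 20 and with 3 reachable CpG sites. It had control mice at 0% and at 100% and a middle mean of 73.0% ± 48.8, whereas the amphetamine mice ran from 87.5% to 100%. In the next 11 genes by this order, Tnr, Nedd9, Cnnm2, Stox2, Slc9b1, Ctnnd2, Wbp1l, Pcsk2os1, Parp8, Camk1d and Osbpl11, control mice reached from 0% to 100% and the lowest control coverage was 20 to 46. Ctnnd2, a catenin gene (chr15:30335001-30340000), kept its spread in the amphetamine mice, from 0% to 92.2%. Camk1d, a calcium-dependent kinase gene (chr2:5600001-5605000), did not, with amphetamine mice between 62.4% and 85.0%.

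Among tiles that touched no gene, the 6 of highest control SD had values of 43.8 to 49.6 points at a lowest coverage of 20 to 28. The first, at chr16:49995001-50000000, ran from 0% to 100% in control and in amphetamine mice, at a lowest amphetamine coverage of 5. Among variable tiles that met the coverage criteria in both groups, the highest amphetamine SD was 48.5 points, while the other tiles reached 49.8. It was in a tile of Gmds, an enzyme of fucose synthesis (chr13:32100001-32105000). Amphetamine mice ran from 0% to 100% there and control mice from 31.1% to 100%. Csgalnact1, Galnt7, Tacr1 and Trio followed among genes, with amphetamine SDs of 47.1, 44.9, 43.9 and 43.6 points and control SDs of 27.0, 26.6, 27.0 and 36.9 points. The Trio tile, of a guanine nucleotide exchange factor (chr15:27775001-27780000), spanned 0% to 100% in both groups.

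No variable tile separated the treatment groups. Of the 4173 with reads in all mice, 0 had all amphetamine values above the control range and 0 below it, while 0.166% and 0.218% of all tiles did. A control SD of this size widens the range that amphetamine values would have to leave, so the count follows in part from the choice. The absolute difference between the group means had a median of 9.10 points in variable and 3.17 points in other tiles. Between 20% and 80% amphetamine methylation these were 7.70 and 5.13 points.

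The sexes differed in mean by a median of 11.4 points in variable and 3.33 points in other tiles, without regard to sign. These mice include the 6 that chose the tiles. Females were above males by mean in 2286 variable tiles and below in 2070. All females lay above all males in 14 of the 4173 tiles with reads in all mice (0.335%, all tiles 0.365%), and below in 8 (0.192%, all tiles 0.162%). Both shares were near those of all tiles.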

How the data were processed

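Genomic DNA from whole pancreas of 6 control and 5 amphetamine mice was digested with MspI and TaqI and analysed by RRBS with single-end reads of 50 bases. Per the study's methods and the labels, the authors ran methylseq, a NextFlow pipeline, with Bismark as aligner and mm10 as genome, summarised CpG sites per region with RnBeads and compared groups with limma. Versions of Bismark and limma are not given in the sources used here.

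The deposited methylation values are fractions from 0 to 1, given by the authors as the mean, SD, lowest and highest value of each group, and were multiplied by 100 here. The deposited coverage columns, made by the authors, give the mean, lowest and highest coverage per region and group; that they are sums over the CpG sites of a region is a reading of their values and is not stated in the sources. The number of mice with reads was also deposited. Columns of the authors' own comparisons hold differences, log ratios, p-values, adjusted p-values and ranks, and were not used. Columns of per-sample values that were not used numbered 0.

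Tiles of 5000 bases were selected on control SD and coverage as stated above. Genes, promoters and CpG islands were those of the deposited tables, with an overlap of at least 1 base. CpG sites, enzyme sites and repeat masking came from GRCm38, and exons from the annotation of that build. Wilson intervals are at 95% and cover counting error only. The members and gene lists were chosen with earlier results of these data known. Named tiles were the 12 genes of highest control SD, the 6 island tiles and 6 tiles without a gene of highest control SD, the 8 of highest amphetamine SD at sufficient coverage, and all that touch a listed gene. The 22 tiles of coverage 200 or more and the near-threshold tiles were added after their values were seen, as was a tile at chr8:116055001-116060000. The derivations of the middle mice were tested on simulated data. Alternatives changed the SD and coverage minimums, the overlap, the chromosomes, the reachable CpG sites and the counting of adjacent tiles. Python 3.11.15, numpy 2.4.6, pandas 2.3.3, scipy 1.17.1 and matplotlib 3.10.9 were used. Some tiles that the rule named are not reported here.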

Additional observations from a re-analysis of the deposited data

Results flagged for a closer look

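Among 84 named tiles, 161 groups of 5 or 6 mice were checked for a mouse far from the rest of its group, using the gap to the nearest mouse as a share of the whole range, of which the summaries give a lower limit. About 1 in 20 groups is picked by chance alone, and control groups here were chosen for their spread. The gap exceeded Dixon's 95% critical value for the number of mice in 3 control and 7 amphetamine groups.

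In the control group, the highest mouse stood apart in the Rassf1 tile (at least 0.847) and in the tile without a gene at chr2:37735001-37740000 (0.808). Only 5 control mice had reads in the island of the Rassf1 tile. The lowest control mouse stood apart in the Inpp5f tile (0.739).

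In the amphetamine group, the highest mouse stood apart in the Fam163a tile (0.984) and in the Lphn3 promoter tile at chr5:81015001-81020000 (1.0). It also did so at chr16:49995001-50000000 (0.784), in Trim28 (0.730) and in Cd3d (0.716). The lowest amphetamine mouse stood apart in Prrg4 (0.929), a membrane protein gene, where it had 83.97% and the middle 3 averaged 98.1%, and at chr16:18490001-18495000 (0.735).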

How the results depend on the processing

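Of 50 recomputed values, 30 moved by less than the spread used for comparison and 20 moved further. The order of variable and other tiles turned for the gene share at a coverage of at least 50 (55.9% and 56.9%) and of at least 200 (50% and 64.9%), and for the promoter share at 20 to 49 (6.57% and 6.45%). With an SD minimum of 30 points, the median control level was 61.1%, the median amphetamine SD 19.5 points, the share with an amphetamine SD of at least 25 points 28.8%, and the median sex difference 12.9 points. At a coverage of at least 50 the island share was 4.41% (other tiles 17.8%), the level 61.8%, the amphetamine SD 15.9 points and the share 15.3% (1.02%). With the coverage criteria also in amphetamine mice, that SD was 16.7 points and the share 17.8%. With at least 10 reachable CpG sites, 57.1% touched a gene and 2.56% an island, at a level of 63.3%. With longer overlaps, 1.49% touched an island (10.9%). Against tiles of 20% to 80% methylation the share was 30.1% (6.58%). Of the settings chosen after seeing the data, coverage 20 to 49 gave an island share of 1.42% (1.76%), an amphetamine SD of 18.1 points (8.92) and a share of 24.8% (4.59%), and coverage of at least 200 gave a level of 65.3% and a share of 9.09% (0.170%). The causes of these shifts were not tested.

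No paired analysis was possible because the tables hold group summaries and no values per mouse. Leaving out each numbered mouse in turn was not run for the same reason. The mouse farthest from the control mean was taken out instead, and the SD then fell under 25 points in 81.2% of the variable tiles.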
